A study of Mus musculus with 4 samples.

Results

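Glucose enters a muscle fiber through transporters of the Slc2a family, is either stored as glycogen or broken down by glycolysis, and leaves as lactate or goes on to the mitochondria as pyruvate. The genes of this route were examined in tibialis anterior (TA) muscle of mice aged 3 months (Young) and 20 months (Old). A set of 44 genes was given by name for glucose and lactate transport, glycolysis, glycogen metabolism, the glycerol phosphate shuttle and pyruvate dehydrogenase. Of these, 41 had a row in all 4 samples among 20340 gene labels, and 38 passed the filter on low values among 10266 genes tested. Pfkfb4, Ldhd and Phka2 had no row and were not analysed here. Aldoc, Eno2 and Ppp1r3d had a row but did not reach 1 FPKM in at least 2 samples.

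All mice were of the C57BL/6 strain, and no treatment or mutation was named for either age. TA lifts the foot at the ankle and is made mostly of fast fibers. The samples were Old 1 and Old 2 at 20 months and Young 1 and Young 2 at 3 months, and the design text of the series speaks of triplicates while 4 samples were analysed here. The labels do not say whether the samples of an age came from separate mice, and p-values then measure only the spread between these samples, which may be technical. FPKM, a level per transcript length and per total of mapped fragments, was deposited without read counts, so sequencing depth is unknown.

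The 2 samples of an age differed mainly by a factor, which matters for the most abundant of these genes. The median over genes of the FPKM ratio was 2.17 for Old 1 to Old 2 and 2.13 for Young 2 to Young 1. At 30 to 100 FPKM the log2 ratios of Old 1 to Old 2 scattered little over genes (robust SD 0.047), as did those of Young 2 to Young 1 (0.056), whereas those of Old 1 to Young 2 had a robust SD of 0.39. Among 2026 genes at 30 FPKM or more in Old 1, the log2 ratio of Old 1 to Old 2 had a median of 0.98 and lay under 0.9 in 8, whereas its percentile 99 reached 3.34. The lower edge was softer for Young 2 to Young 1, where the log2 ratio had a median of 0.97 and lay under 0.9 in 166 of 2027 genes (8.19%). The study describes its sequencing experiments as independent, but whether Old 1 and Old 2, or Young 1 and Young 2, are separate libraries could not be tested without counts. If each age is 1 library, n = 1 per age and the p-values below have no replicate check.

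Level and factor moved together at the top of the range. Of 64 genes at 1000 FPKM or more in Old 1, 7 were members, namely Pfkm, Tpi1, Gapdh, Pgam2, Eno3, Ldha and Pygm. Their log2 ratio of Old 1 to Old 2 lay between 1.32 and 2.39, against a median of 0.97 over genes at 30 to 100 FPKM. For the 23 members at 10 to 1000 FPKM it lay between 0.93 and 1.5. One factor per sample therefore does not bring these 7 genes, or genes at 1 to 3 FPKM, to a common scale. For the 7, standard errors (SE) of log2 fold changes were 0.15 to 0.73, the largest among members apart from Pfkp, Slc2a3, Pygb and Pfkfb3.

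**Figure D1:**
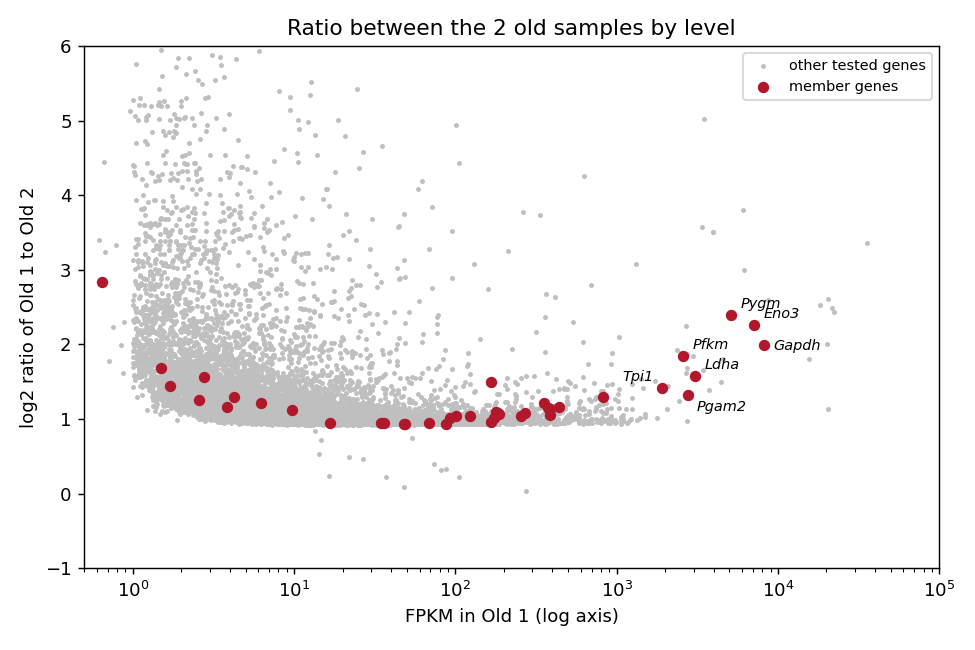
Log2 ratio of Old 1 to Old 2 (vertical axis) against the FPKM in Old 1 (log axis) for tested genes (grey) and member genes (red), with the vertical axis ending at 6. At 30 FPKM or more the points have a lower edge near 0.9, and the 7 named members at 1000 FPKM or more lie above it, at 1.32 to 2.39. Under 10 FPKM the points scatter more widely.

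Each sample was divided by 1 factor (the median ratio to the geometric mean over genes with at least 1 FPKM in all 4 samples), and log2(scaled FPKM + 1) was compared between ages with limma (Benjamini-Hochberg over all tested genes, adjusted p under 0.05). Fold changes from this fit understate those of genes with low values. Ratios of FPKM are also given for the pairs of samples with a like factor, Old 1 to Young 2 and Old 2 to Young 1, called the crossed pairs below.

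The members past the threshold were mostly lower in old muscle, with 1 exception at the control point of glycolysis. Of 38 tested members, 11 fell with age, against a background of 7.94% of all tested genes. They were Slc2a4, Slc16a1, Slc16a3, Hk2, Pfkfb2, Pgam1, Gys1, Gbe1, Ppp1r3c, Stbd1 and Pdhb. A single member, Pfkfb3, rose, against a background of 5.61%. The median log2 fold change was -0.24 over the members and -0.01 over all tested genes, and 29 of 38 members (76.3%) had a negative log2 fold change, against 50.6% of all tested genes. With no test, 8 members were at least 1.5-fold lower in both crossed pairs (background 9.28%) and 1 was at least 1.5-fold higher (background 6.7%). The samples of the 2 ages did not overlap on scaled values in 20 members that were lower in old muscle (background 28.4%) and in 6 that were higher (background 27.7%). On the values as deposited this held among tested members for Slc16a1 alone on the lower side (background 1.93%) and Pfkfb3 alone on the higher side (background 1.61%).

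These calls depended on how the samples were scaled and on single samples, and the backgrounds moved with them. By limma on the values as deposited, 0 members passed (smallest adjusted p = 1.0, 1 higher and 0 lower at an unadjusted p under 0.05), against backgrounds of 0.175% higher and 0.127% lower. With samples set to the same median, 0 members passed (smallest adjusted p = 0.0895, 1 higher and 9 lower unadjusted), against 0.117% and 0.127%. With the labelled number as a replicate block, 0 members passed (smallest adjusted p = 0.0861, 1 higher and 9 lower unadjusted), against 0.234% and 0.205%. Leaving out Old 2 left 0 members (1 higher and 11 lower unadjusted), against 0.039% and 0.0195%, and leaving out Young 1 left 0 (2 higher and 10 lower unadjusted), against 0.0% and 0.0682%. Without Old 1, Pfkfb3 rose and Slc16a1 fell, against 1.79% and 2.95%. Without Young 2, Pfkfb3 rose and 4 members fell (Slc16a1, Slc16a3, Pgam1 and Gbe1), against 2.52% and 3.3%.

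Pfkfb3 also rose under each of the settings that follow, while the members that fell varied in number. They were Slc16a1, Slc16a3 and Gbe1 with quantile normalization (backgrounds 1.16% higher and 1.83% lower), Slc2a4, Slc16a3 and Gys1 with no filter (0.72% and 1.28%), and Slc2a4 and Slc16a3 without limma's trend (1.0% and 1.76%). The same 11 fell with a pseudocount of 0.1 (6.2% and 8.49%) and with the highest row per symbol (5.9% and 8.28%). Of them, 8 also met a fold of 1.5 in both crossed pairs (3.37% and 5.17%). With at least 1 FPKM required in all 4 samples, Ldhb joined Pfkfb3 among 2 that rose and 14 fell (16.9% and 18.0%). Blocking on the crossed pairs, with the values as deposited, 5 rose (Pfkfb3, Ldhb, Phkg1, Gyg and Ppp1r3a) and 23 fell (27.4% and 32.9%). Those 23 were the same 11 and Slc2a1, Slc2a3, Gpi1, Tpi1, Gapdh, Pgam2, Eno1, Ldha, Ugp2, Gpd1, Gpd2 and Pdhx. The crossed pairs were chosen from these same values and are not in the labels, so these calls are not independent support.

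**Figure D2:**
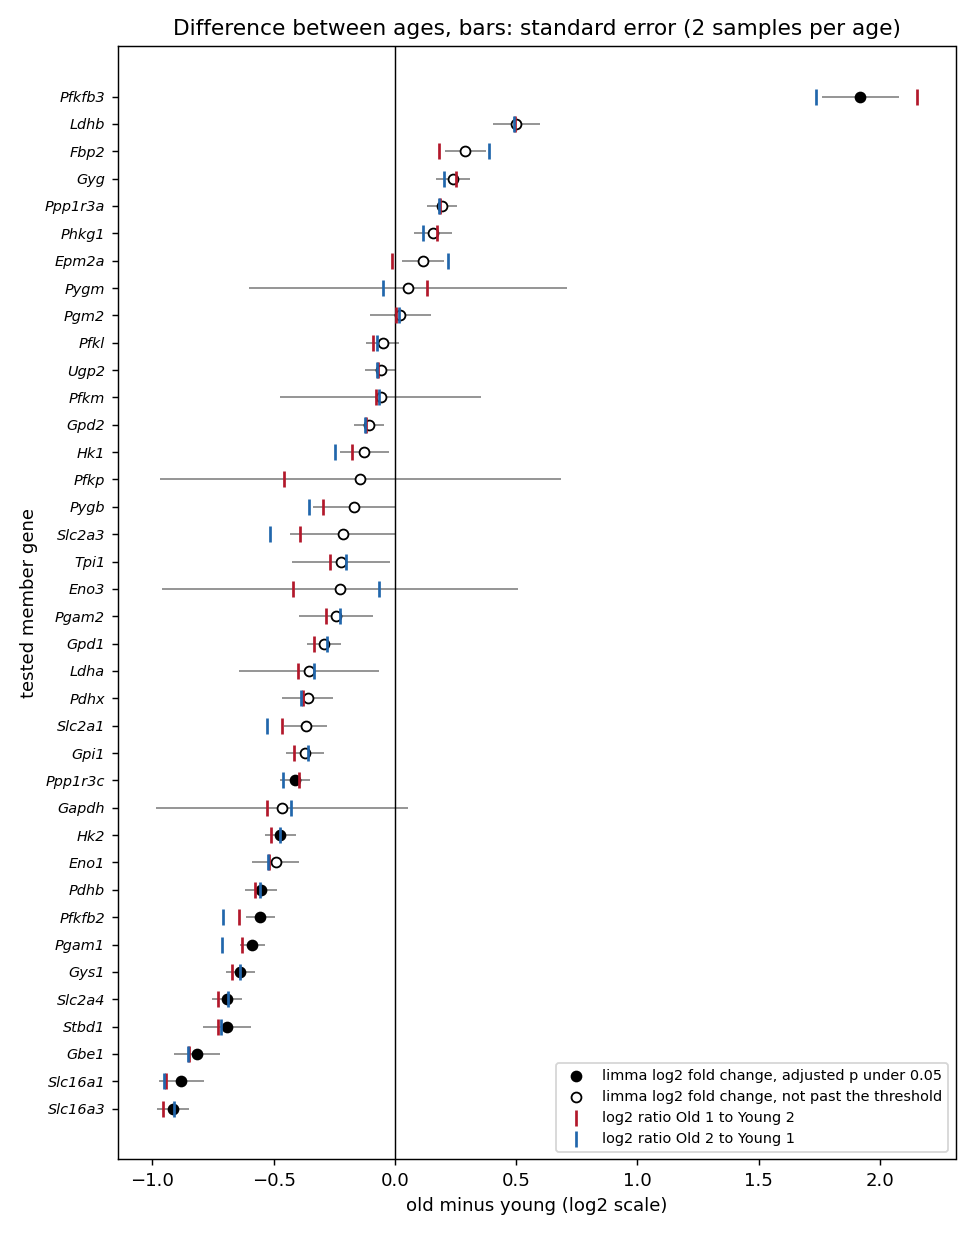
Difference between old and young muscle on the log2 scale (horizontal axis) for the 38 tested member genes (vertical axis). Circles are limma log2 fold changes with their standard error (SE, 2 samples per age), filled where the adjusted p is under 0.05, and ticks are log2 FPKM ratios in the crossed pairs. The 11 filled circles left of 0 run from Slc16a3 at -0.91 to Ppp1r3c at -0.41, and Pfkfb3 stands alone at 1.92.

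The upstream sequences of the genes at both ends of this range are shown for orientation. They are 300 bases long, from 250 before to 50 after a RefSeq transcription start (GRCm38.p6), and are written 5′ to 3′ in the direction of the gene. Capitals mark ACGTG on either strand, the core of the site bound by hypoxia-inducible factors, which are known to regulate glycolytic genes. It overlaps the E-box CACGTG, which holds it on both strands. Pfkfb3 has 2 listed starts on the minus strand, at chr2:11553880-11554179 (first) and chr2:11502041-11502340 (second). The 2 lactate transporter genes lie on the plus strand, Slc16a1 at chr3:104638414-104638713 and Slc16a3 at chr11:120948817-120949116. Gbe1, the gene with the next most negative log2 fold change, has its promoter on the plus strand at chr16:70313699-70313998 and is shown because it holds no ACGTG on either strand.
Pfkfb3, first start: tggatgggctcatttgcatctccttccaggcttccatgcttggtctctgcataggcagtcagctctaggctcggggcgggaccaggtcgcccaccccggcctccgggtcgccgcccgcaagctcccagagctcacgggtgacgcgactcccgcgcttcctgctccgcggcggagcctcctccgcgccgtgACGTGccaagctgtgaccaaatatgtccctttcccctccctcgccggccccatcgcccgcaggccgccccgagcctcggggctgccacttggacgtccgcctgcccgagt
Pfkfb3, second start: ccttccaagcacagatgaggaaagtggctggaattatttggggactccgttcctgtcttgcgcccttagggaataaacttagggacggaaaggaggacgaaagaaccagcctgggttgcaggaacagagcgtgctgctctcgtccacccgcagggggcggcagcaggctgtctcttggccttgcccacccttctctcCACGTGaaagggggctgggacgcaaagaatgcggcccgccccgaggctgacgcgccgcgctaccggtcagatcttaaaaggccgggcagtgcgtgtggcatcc
Slc16a1: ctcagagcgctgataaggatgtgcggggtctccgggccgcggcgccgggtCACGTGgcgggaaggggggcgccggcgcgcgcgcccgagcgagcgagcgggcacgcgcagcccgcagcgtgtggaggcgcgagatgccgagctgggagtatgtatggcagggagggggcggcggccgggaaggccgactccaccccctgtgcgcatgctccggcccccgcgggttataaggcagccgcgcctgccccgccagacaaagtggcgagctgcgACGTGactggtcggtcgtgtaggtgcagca
Slc16a3: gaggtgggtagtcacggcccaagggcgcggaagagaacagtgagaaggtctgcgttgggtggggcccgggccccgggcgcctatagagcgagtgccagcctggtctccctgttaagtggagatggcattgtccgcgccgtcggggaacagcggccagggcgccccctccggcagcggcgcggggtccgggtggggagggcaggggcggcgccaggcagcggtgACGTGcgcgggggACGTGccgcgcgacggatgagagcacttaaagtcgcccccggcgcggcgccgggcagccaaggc
Gbe1: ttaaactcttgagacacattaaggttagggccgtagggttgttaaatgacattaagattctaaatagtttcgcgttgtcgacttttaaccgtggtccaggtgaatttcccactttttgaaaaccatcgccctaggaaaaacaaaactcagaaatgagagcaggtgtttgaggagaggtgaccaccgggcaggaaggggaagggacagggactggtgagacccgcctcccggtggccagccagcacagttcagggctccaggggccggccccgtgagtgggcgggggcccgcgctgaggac

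ACGTG thus stands in the promoters of the gene that rose and of both lactate transporter genes that fell, and not in that of Gbe1, which also fell. Of the 41 members with a row, 38 were matched to 50 such promoters by symbol and position. ACGTG was found on either strand in 25 of the 50 (50%), against 25.9% of 9113 promoters of tested genes and 19.6% of all 32851 promoters. The median GC content was 60.5% in member promoters and 61.0% in those of tested genes. CACGTG was found in 9 of the 50 (18.0%), against 10.2% for tested genes. GTAAACA, a core letter run of FoxO sites, was found in 1 (2.0% against 2.47%), and the site of the muscle factor MEF2 in 2 (4.0% against 1.92%). Of 14 promoters of the 12 members past the threshold, 10 held ACGTG. This was not counted over all genes past the threshold, and a link between the motif and the calls was not tested. Promoters of 1 gene were counted separately, and those with ACGTG belonged to 22 member genes. The promoters are printed and counted as a description, and no binding was measured.

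Glucose transport was led by Slc2a4, which encodes GLUT4, the transporter that insulin and contraction bring to the fiber surface. Its FPKM was 269.6 in Old 1 and 128 in Old 2, against 205 in Young 1 and 447 in Young 2. Slc2a4 (chromosome 11) was thus 1.66-fold lower in Old 1 than in Young 2 and 1.61-fold lower in Old 2 than in Young 1, and it fell by a log2 of 0.69 (SE 0.06, adjusted p = 0.0261 from limma). Slc2a1, encoding the widely expressed GLUT1, had 4.21 and 1.71 FPKM in the old and 2.47 and 5.82 FPKM in the young samples. For Slc2a3, which encodes GLUT3 of neurons and blood cells, the FPKM was 1.49 and 0.464 in the old and 0.663 and 1.95 in the young samples. Values of a pair are given here and below in the order of the sample numbers. Both were lower in old muscle in the 2 crossed pairs, by 1.38- and 1.44-fold for Slc2a1 and by 1.31- and 1.43-fold for Slc2a3, and neither passed the test (adjusted p = 0.0833 and 0.629 from limma). Slc2a4 made up 97.9% and 98.3% of the summed FPKM of the 3 transporters in Old 1 and Old 2 and 98.5% and 98.3% in Young 1 and Young 2, so these shares touched across ages.

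Slc2a1 is also expressed by endothelium. Of 8 endothelial markers, 7 had a row of their own and were tested. Flt1 and Tie1 fell (background 7.94%) and Cldn5 rose (background 5.61%). The summed scaled FPKM of the list was 59.3 to 64.4 in old and 72.5 to 79.3 in young samples. The part of these cells in the values of Slc2a1 was not tested. In whole muscle, fewer cells of a type and less RNA per cell cannot be told apart.

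Both tested lactate transporters fell, and by the most of all members. Slc16a3 encodes MCT4, the export carrier of fast glycolytic fibers, and Slc16a1 encodes MCT1, which also takes lactate up in oxidative fibers. The FPKM of Slc16a3 was 174 in Old 1 and 86.0 in Old 2, against 162 in Young 1 and 338 in Young 2. It was 1.94- and 1.88-fold lower in old muscle in the crossed pairs, and fell by a log2 of 0.91 (SE 0.07, adjusted p = 0.024 from limma). Slc16a1 had 16.67 FPKM in Old 1 and 8.62 in Old 2, against 16.68 in Young 1 and 32.0 in Young 2. It was 1.92- and 1.93-fold lower and fell by a log2 of 0.88 (SE 0.09, adjusted p = 0.0291 from limma), and it was the only member lower in old muscle without overlap on the values as deposited, by the small margin between Old 1 and Young 1. The ratio between the 2 carriers was nearly the same in all samples, with Slc16a1 at 8.72% and 9.10% of their sum in the old and 9.34% and 8.65% in the young samples. Bsg, which encodes the chaperone that both carriers need at the membrane, was listed at 0 in Old 2 and Young 1 and had 737 FPKM in Old 1 and 697 in Young 2, so it was not compared.

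At the entry of glycolysis, Hk2, the main muscle hexokinase, which traps glucose as glucose 6-phosphate, had 92.2 FPKM in Old 1 and 45.5 in Old 2, against 63.1 in Young 1 and 131 in Young 2. It was 1.43- and 1.39-fold lower in the crossed pairs and fell by a log2 of 0.47 (SE 0.065, adjusted p = 0.0397 from limma). Hk1, the hexokinase of most other tissues, had 2.56 and 1.07 FPKM in the old and 1.27 and 2.89 FPKM in the young samples, and did not pass the test (adjusted p = 0.509 from limma). The share of Hk1 in the sum of both was 2.70% and 2.31% in the old and 1.98% and 2.15% in the young samples, without overlap (two-sided p = 0.333 by exact permutation, the lowest value that 2 samples against 2 allow). Gpi1, the isomerase that makes fructose 6-phosphate, had 442, 198, 253 and 589 FPKM in Old 1, Old 2, Young 1 and Young 2, and its log2 fold change of -0.37 (SE 0.08) did not pass (adjusted p = 0.0697 from limma).

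The one member that rose sets the level of fructose 2,6-bisphosphate, the main allosteric activator of phosphofructokinase. Pfkfb3 encodes a bifunctional enzyme with strong kinase activity. Its FPKM was 167 in Old 1 and 59.0 in Old 2, against 17.7 in Young 1 and 37.5 in Young 2, so that the ages did not overlap even on the values as deposited. Old 1 exceeded Young 2 by 4.45-fold and Old 2 exceeded Young 1 by 3.33-fold, and Pfkfb3 rose by a log2 of 1.92 (SE 0.16, adjusted p = 0.0246 from limma). The 2 old samples differed in Pfkfb3 beyond their common factor, with a log2 ratio of Old 1 to Old 2 of 1.5. Over genes at 100 to 300 FPKM in Old 1 the median of that ratio was 1.0 (robust SD 0.07). For Young 2 to Young 1 the log2 ratio of Pfkfb3 was 1.08. Pfkfb2, the form known from heart, had 6.28 and 2.70 FPKM in the old and 4.42 and 9.79 FPKM in the young samples. It was 1.56- and 1.63-fold lower in the crossed pairs and fell by a log2 of 0.555 (SE 0.06, adjusted p = 0.0294 from limma). Pfkfb3 therefore made up 96.4% and 95.6% of the sum of both in old muscle and 80.0% and 79.3% in young muscle. The difference was 16.3 percentage points (two-sided p = 0.333 by exact permutation, again the lowest possible). A factor common to all genes of a sample does not move this share. The factor varied with level, however, and its part in the share was not tested. Pfkfb1, which is not a member, and Pfkfb4 had no row. This share is therefore not one of all genes of the family.

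The enzymes that these regulators act on did not pass the test. Pfkm, the muscle phosphofructokinase, had 2587 and 719 FPKM in the old and 754 and 2728 FPKM in the young samples, and the crossed pairs differed by 1.05-fold each. It made up at least 99.7% of the summed FPKM of Pfkm, Pfkl and Pfkp in each sample. Pfkl, the liver form, had 3.85, 1.72, 1.81 and 4.10 FPKM in Old 1, Old 2, Young 1 and Young 2. Pfkp, the platelet form, had 2.14 FPKM in Old 1 and 2.94 in Young 2 and was listed at 0 in the other two. Fbp2, the muscle fructose bisphosphatase, which works against phosphofructokinase, had 88.0 and 46.0 FPKM in the old and 35.2 and 77.7 FPKM in the young samples, and was 1.13- and 1.31-fold higher in the crossed pairs. None of these 4 genes passed the test (adjusted p = 0.99, 0.752, 0.986 and 0.116 from limma), which does not show that they were equal.

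**Figure D3:**
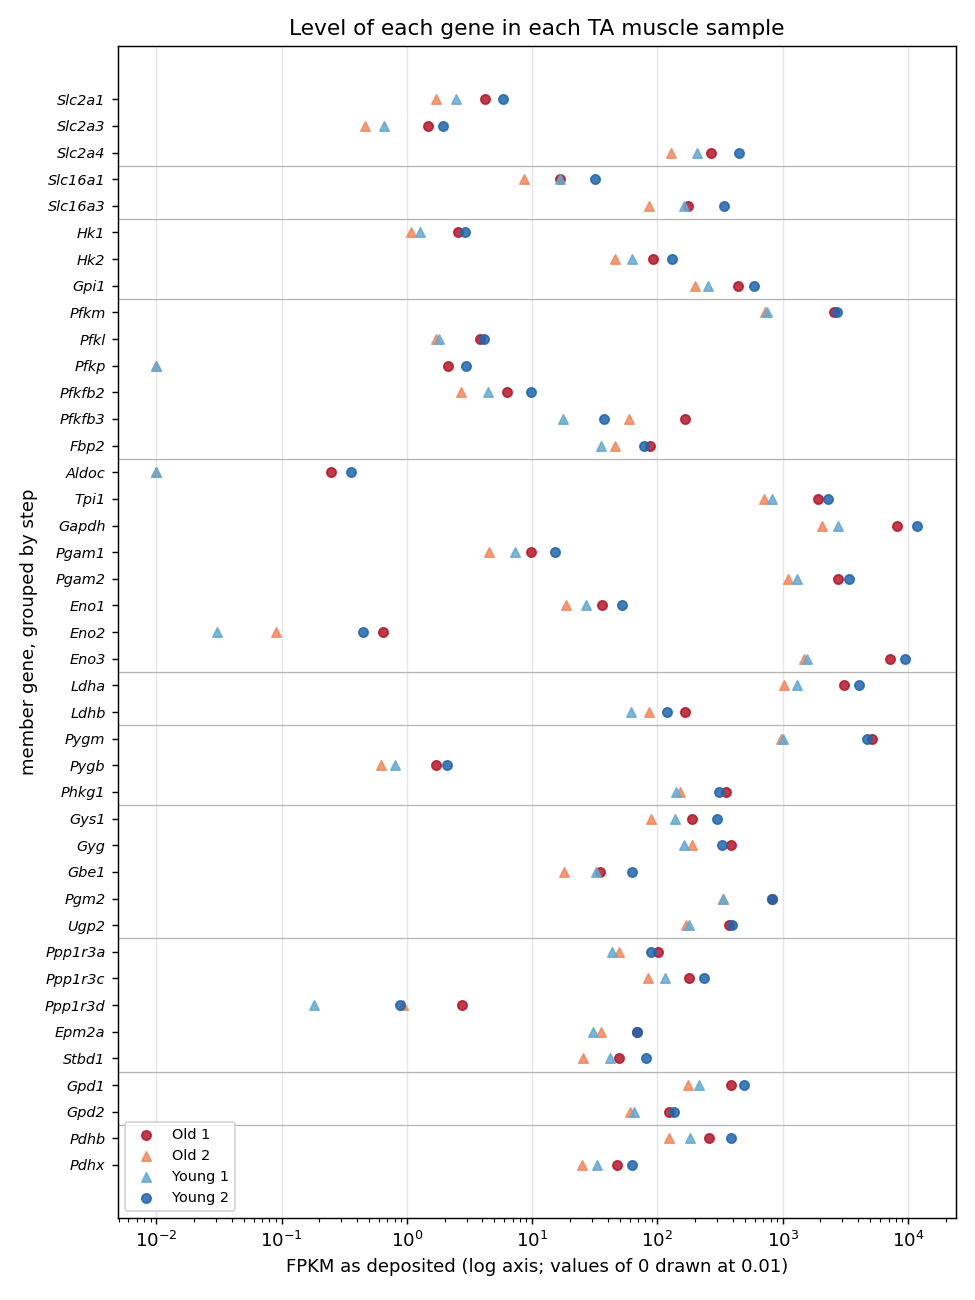
FPKM as deposited (horizontal log axis) of the 41 member genes with a row, grouped by step (vertical axis, lines between steps), with 1 symbol per sample, red tones for old and blue tones for young, circles for Old 1 and Young 2 and triangles for Old 2 and Young 1. Values of 0 are drawn at 0.01. For Pfkfb3 the old symbols lie to the right (59.0 and 167 against 17.7 and 37.5 FPKM), whereas for Slc16a3 the symbol of Old 1 (174) falls beside that of Young 1 (162).

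The member genes from aldolase to enolase had the largest summed FPKM of all steps in each sample. Aldoa and Pgk1, which belong to this stretch, and Pkm after it are not members and had no row in all 4 samples. Gapdh, glyceraldehyde 3-phosphate dehydrogenase, ranked first and Eno3, the muscle enolase, ranked second among the members in all 4 samples. Gapdh had 8239 FPKM in Old 1 and 2065 in Old 2, against 2782 in Young 1 and 11892 in Young 2. It was 1.44- and 1.35-fold lower in old muscle in the crossed pairs, but the wide span within an age left a log2 fold change of -0.47 with an SE of 0.52 (adjusted p = 0.664 from limma). The mouse genome holds many processed copies of Gapdh, and how the authors' software divided reads between them is not given in the sources used here. Eno3 had 7140 and 1492 FPKM in the old and 1561 and 9538 FPKM in the young samples, 1.34- and 1.05-fold lower in the crossed pairs. Tpi1, triose phosphate isomerase, had 1905, 713, 819.5 and 2296 FPKM in Old 1, Old 2, Young 1 and Young 2, and Pgam2, the muscle phosphoglycerate mutase, had 2752, 1103, 1291 and 3352 FPKM. Both were 1.15- to 1.22-fold lower in the crossed pairs, and neither passed (adjusted p = 0.574 and 0.389 from limma). With quantile normalization the log2 fold changes of Gapdh, Eno3, Tpi1, Pgam2 and Pfkm turned positive (0.04 to 0.30). With the crossed pairs as blocks and the values as deposited, in contrast, Gapdh (-0.48, SE 0.069, adjusted p = 0.0292 from limma), Tpi1 (adjusted p = 0.0302) and Pgam2 (adjusted p = 0.0311) passed as lower in old muscle, while Pfkm and Eno3 did not. The labels do not give these pairs. They were chosen for a like factor in these same values, so p-values of this fit cannot be taken as a measure of the spread between mice. The direction of Gapdh, Eno3, Tpi1, Pgam2 and Pfkm thus depended on the scaling.

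The non-muscle forms at these steps had far lower levels. Pgam1, the mutase of most tissues, had 9.77 and 4.49 FPKM in the old and 7.36 and 15.1 FPKM in the young samples. It was 1.55- and 1.64-fold lower in the crossed pairs and fell by a log2 of 0.59 (SE 0.05, adjusted p = 0.0249 from limma). Eno1, the enolase of most tissues, had 36.3 and 18.8 FPKM in the old and 27.0 and 51.9 FPKM in the young samples, and was 1.43- and 1.44-fold lower, just short of the threshold (adjusted p = 0.0613 from limma). Eno2, the enolase of neurons, had 0.647 and 0.0909 FPKM in the old and 0.0307 and 0.446 FPKM in the young samples. Aldoc, the brain aldolase, had 0.248 FPKM in Old 1 and 0.356 in Young 2 and was listed at 0 in the other two.

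Lactate dehydrogenase interconverts pyruvate and lactate, and its A and B subunits prevail in fast glycolytic and in oxidative muscle, respectively. Ldha had 3083 and 1031 FPKM in the old and 1298 and 4072 FPKM in the young samples, 1.32- and 1.26-fold lower in the crossed pairs (adjusted p = 0.519 from limma). Ldhb had 167 and 86.3 FPKM in the old and 61.5 and 119 FPKM in the young samples. It was 1.41- and 1.40-fold higher in old muscle, at 0.50 on the log2 scale (SE 0.097, adjusted p = 0.0603 from limma). Ldhb accounted for 5.15% and 7.72% of the sum of both in Old 1 and Old 2 and for 4.52% and 2.83% in Young 1 and Young 2, without overlap (two-sided p = 0.333 by exact permutation, again the lowest possible). Within the crossed pairs that share was 5.15% against 2.83% and 7.72% against 4.52%. Ldha was among the genes whose ratio within an age was large, so this share also moved with the sample.

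**Figure D4:**
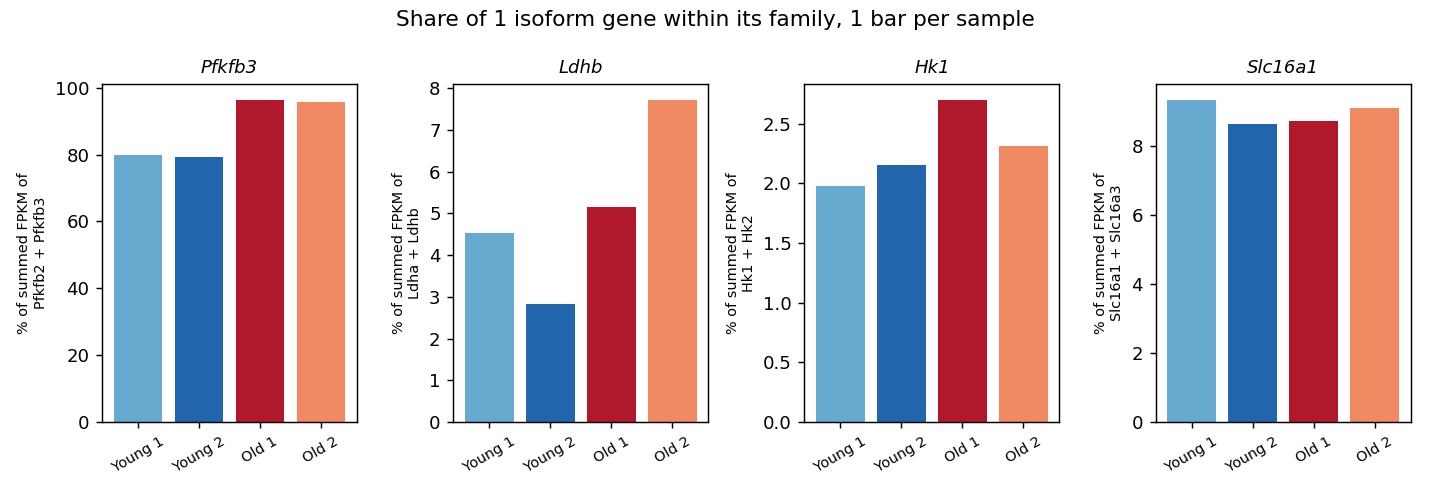
Share of Pfkfb3, Ldhb, Hk1 and Slc16a1 in the summed FPKM of the genes named on each vertical axis (%), with 1 bar per sample and each axis starting at 0. Pfkfb3 stood at 95.6% to 96.4% in old and 79.3% to 80.0% in young samples, whereas the shares of Slc16a1 overlapped.

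Markers of slow fibers moved with age in the same samples. Of 12 slow fiber markers, 10 had a row of their own and were tested, 7 rose and 1 fell. For this and the lists below, the backgrounds were 5.61% higher and 7.94% lower over all tested genes. Myh7, the slow myosin heavy chain, had 119 and 32.3 FPKM in the old and 1.477 and 3.658 FPKM in the young samples, and Tnnt1, slow troponin T, had 204 and 74.4 against 3.56 and 6.67 FPKM (adjusted p = 0.0235 and 0.0193 from limma). The summed scaled FPKM of the list was 970.9 to 1205 in old and 408 to 450.3 in young samples. The fall came from Actn2, which all fibers use. Of 13 fast fiber markers, 10 were tested, and Myh1 and Tnnt3 were the only 2 past the threshold. Myh1 was listed at 0 in both young samples and Tnnt3 in both old samples. Myh4, a fast myosin heavy chain, was listed at 0 in all 4 samples. Whether such zeros mark absent RNA or loci without a quantified value was not tested. Of the fibroblast and tendon markers 9 were tested, of which 0 rose and 4 fell (summed scaled FPKM 156 to 162 in old and 219 to 232 in young samples). The macrophage list had 0 of 8 higher and 2 lower, and the adipocyte list 0 of 7 higher and 1 lower, which was Plin4. Of the other tested adipocyte markers, Adipoq (ratios of old to young 1.97 and 2.17), Plin1 and Cidec were higher in both crossed pairs. Fabp4 and Pparg were lower in both, and Cfd was listed at 0 in Old 2 and Young 1. The part of these lists or of the slow fiber markers in the values of Ldhb, Slc2a4, Slc16a1 or the other members was not tested.

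No member of glycogen breakdown passed the test. Pygm, the muscle glycogen phosphorylase, had 5131 and 977 FPKM in the old and 1012 and 4682 FPKM in the young samples, with ratios of 1.10 and 0.966 in the crossed pairs. Pygb, the brain form, had 1.70 and 0.626 FPKM in the old and 0.80 and 2.08 FPKM in the young samples. Phkg1, the catalytic subunit of the phosphorylase kinase of muscle, had 353 and 151 FPKM in the old and 139.5 and 313 FPKM in the young samples, 1.13- and 1.08-fold higher in the crossed pairs. The adjusted p from limma was 0.998, 0.627 and 0.284. The SE of the log2 fold change of Pygm was 0.66, so the lack of a call does not show equal levels.

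Of 5 tested members of glycogen synthesis, 2 fell (background 7.94% of all tested genes). Gys1, muscle glycogen synthase, which adds glucose to the chain, had 187 and 89.5 FPKM in the old and 139 and 298 FPKM in the young samples. It was 1.59- and 1.56-fold lower in the crossed pairs and fell by a log2 of 0.64 (SE 0.06, adjusted p = 0.0274 from limma). Gbe1, the branching enzyme, had 34.6 and 17.9 FPKM in the old and 32.4 and 62.3 FPKM in the young samples. It was 1.80- and 1.81-fold lower and fell by a log2 of 0.81 (SE 0.095, adjusted p = 0.0323 from limma). Gyg, glycogenin, the protein that primes each particle, went the other way without passing the test, with 389 and 188 FPKM in the old and 163 and 327 FPKM in the young samples (1.19- and 1.15-fold higher, adjusted p = 0.119 from limma). Ugp2, which makes the glucose donor UDP-glucose, had 375 and 169.7 FPKM in the old and 179 and 394 FPKM in the young samples, 1.05-fold lower in both crossed pairs. The row named Pgm2 lies on chromosome 4 from 99929451 to 99987297 (mm10), where RefSeq now names Pgm1, the main phosphoglucomutase of muscle. It had 827 and 337 FPKM in the old and 333 and 824 FPKM in the young samples, with ratios of 1.00 and 1.01.

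Among genes that tether phosphatase or other proteins to glycogen, Stbd1, which links glycogen to autophagy, had 49.0 and 25.6 FPKM in the old and 42.1 and 81.2 FPKM in the young samples. It was 1.66- and 1.64-fold lower in the crossed pairs and fell by a log2 of 0.69 (SE 0.10, adjusted p = 0.0409 from limma). Ppp1r3c, a targeting subunit that directs protein phosphatase 1 to glycogen and so favours synthesis, had 179 and 83.9 FPKM in the old and 115 and 236 FPKM in the young samples. It was 1.32- and 1.38-fold lower and fell by a log2 of 0.41 (SE 0.06, adjusted p = 0.0431 from limma). Ppp1r3a, the targeting subunit typical of striated muscle, had 101 and 49.1 FPKM in the old and 43.3 and 89.0 FPKM in the young samples, 1.14- and 1.13-fold higher (adjusted p = 0.138 from limma). Epm2a, which encodes the glycogen phosphatase laforin, had 68.3 and 35.4 FPKM in the old and 30.4 and 68.8 FPKM in the young samples (adjusted p = 0.467 from limma). Ppp1r3d, another targeting subunit, had 2.77 and 0.934 FPKM in the old and 0.182 and 0.884 FPKM in the young samples. The ages did not overlap on the values as deposited, and the ratios of old to young were 3.13 and 5.13 in the crossed pairs, but the gene was under the filter and has no adjusted p.

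Of the genes at the exits of glycolysis, Pdhb, the E1 beta subunit of pyruvate dehydrogenase, had 257 and 125 FPKM in the old and 184 and 383 FPKM in the young samples. It was 1.49- and 1.47-fold lower in the crossed pairs and fell by a log2 of 0.55 (SE 0.06, adjusted p = 0.0323 from limma). Pdhx, which anchors the E3 subunit in the same complex, had 47.8 and 25.1 FPKM in the old and 32.8 and 62.1 FPKM in the young samples, 1.30- and 1.31-fold lower (adjusted p = 0.117 from limma). The glycerol phosphate shuttle carries electrons of cytosolic NADH to the mitochondria. Its cytosolic enzyme gene Gpd1 had 388 and 176 FPKM in the old and 214 and 489 FPKM in the young samples, 1.26- and 1.21-fold lower, and the mitochondrial Gpd2 had 124 and 60.0 against 65.3 and 135 FPKM, 1.09-fold lower in both crossed pairs. Neither passed (adjusted p = 0.0846 and 0.357 from limma).

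Other genes of the pathway were counted from lists written by hand, beside backgrounds of 5.61% higher and 7.94% lower over all tested genes. Of 22 genes of glucose and lactate transport and its control, 10 were tested, and 2 rose and 2 fell. Txnip, an inhibitor of glucose uptake, had 490.5 and 207 FPKM in the old and 95.1 and 195 FPKM in the young samples, and rose by a log2 of 1.23 (SE 0.08, adjusted p = 0.0227 from limma). Tbc1d4, which holds GLUT4 vesicles back until insulin acts, had 7.47 and 3.67 FPKM in the old and 1.46 and 3.24 FPKM in the young samples, 2.31- and 2.50-fold higher in the crossed pairs, and rose (adjusted p = 0.0227 from limma). Its relative Tbc1d1 fell (log2 fold change -0.51, adjusted p = 0.043 from limma), as did the transporter gene Slc2a8 (log2 fold change -0.59, adjusted p = 0.0258 from limma). Of 12 genes of pyruvate entry into mitochondria, 7 were tested and Pdk2, an inhibitory kinase of pyruvate dehydrogenase, fell (log2 fold change -0.43, adjusted p = 0.0467 from limma). Pdk4, the kinase induced by fasting, had 303 and 141 FPKM in the old and 75.3 and 219 FPKM in the young samples and did not pass (log2 fold change 0.70, adjusted p = 0.0913 from limma). Of 25 further genes of glycolysis and gluconeogenesis, 7 were tested and 0 passed in either direction by limma (1 higher and 2 lower at an unadjusted p under 0.05). With the values as deposited, 0 genes of these 3 lists passed by limma, and 0 had an unadjusted p under 0.05.

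Summed over the 41 rows, the members made up 5.11% and 4.55% of all FPKM in Old 1 and Old 2 and 4.81% and 5.98% in Young 1 and Young 2, so the old share was the lower in both crossed pairs while the ages overlapped. Most of that sum came from the steps from aldolase to enolase, at 2.88% and 2.38% in the old and 2.58% and 3.67% in the young samples. In the same order, glycogen breakdown took 0.786% and 0.498%, and 0.459% and 0.676%.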

How the data were processed

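TA muscle mRNA was sequenced, and the 4 samples were grouped by the age in their labels. The authors removed adaptors, low-quality bases and PCR duplicates, then mapped reads to mm10 using TopHat2 (2.0.10) and RefSeq genes. They ran Cufflinks and deposited its FPKM for each locus and sample. Cuffdiff (2.1.1), their test, needs aligned reads and was not repeated. Each table held 1 incomplete line, which was left out. The 542 loci lacking a value in some sample were not used, and 20605 loci were summed by symbol to 20340 labels. Low FPKM values showed no steps of whole reads, so no count test was run and depth is unknown. Locus starts are 1-based. The loci of Slc2a4, Hk1, Pfkm, Pfkp, Pfkfb2, Tpi1, Gapdh, Eno3, Phkg1, Ugp2 and Pdhb also hold other genes.

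Each sample was divided by a median-of-ratios factor (from 7228 genes), and log2(scaled FPKM + 1) was compared with limma 3.58.1 in R 4.3.3 (trend, two-sided), testing genes that reached 1 FPKM in 2 or more samples. In data simulated with a log2 factor of 1 within an age and a noise SD of 0.1, this comparison of Old with Young recovered 97% of 200 genes changed by a log2 of 0.5 among 10169 genes, with 13 false calls, and the unscaled fit recovered 0. The simulated factor did not vary with level, and the simulated noise was the same for every gene and independent between samples. In the data, log2 ratios of Old 1 to Old 2 had a robust SD of 0.047 at 30 to 100 FPKM. That SD was 0.622 at 1000 FPKM or more, so the recovered share need not hold for the members. Isoform shares were compared by exact permutation over samples (scipy 1.17.1). The members, lists and settings were chosen with earlier results of these data known. All members are named, and of other pathway genes those past the threshold. Bsg, Pdk4 and single markers were named after their values were seen. Alternatives were other scalings, pseudocounts, filters and pairings, and leaving out each sample. Results for the Schwann cell and nerve markers and for the further glycogen genes are not reported here.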

Additional observations from a re-analysis of the deposited data

How the results depend on the processing

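Over all tested genes, 576 were higher and 815 lower in old muscle. These became 18 and 13 with values as deposited, 119 and 188 with quantile normalization, 12 and 13 with the same median, 1222 and 1302 with 1 FPKM in all 4 samples, 114 and 202 with no filter, 103 and 181 with no trend, and 346 and 531 with a fold of 1.5 in both crossed pairs. Leaving out 1 sample gave 0 to 259 higher and 2 to 339 lower. Members higher and lower (1 and 11) became 0 and 0 as deposited or with the same median, 1 and 3 with quantile normalization or no filter, 1 and 2 with no trend, and 2 and 14 with 1 FPKM in all 4 samples. Leaving out 1 sample gave 0 to 1 higher and 0 to 4 lower, with a median log2 fold change of -0.418 to -0.094. None of the 12 members past the threshold changed direction under any setting run. They were picked for their difference in these same samples, which every setting reuses, so this is not independent support. The causes of the changes in these counts were not tested, and some settings also hold fewer samples or genes.

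The replicate block on the labelled numbers gave 24 higher and 21 lower genes and 0 and 0 members. Same-numbered samples deviated in opposite directions (correlation of deviations -0.885 as deposited and -0.903 scaled), so the numbers do not pair the samples. With the numbers crossed, as deposited, 2812 genes were higher and 3374 lower, with 5 and 23 members. That pairing was chosen from these same values and is not in the labels.

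Quantile normalization reversed the log2 fold changes of Pfkm (0.282), Tpi1 (0.10), Gapdh (0.085), Pgam2 (0.042) and Eno3 (0.303). Leaving out 1 sample reversed Pfkm, Pfkp, Gapdh, Eno3, Pygm and Pgm2, whose ranges were -0.439 to 0.322, -0.936 to 0.651, -0.967 to 0.035, -0.986 to 0.531, -0.589 to 0.697 and -0.083 to 0.13. The old minus young share, in percentage points, reversed for Pfkl (-0.0463 to 0.0435), Pfkp (-0.0664 to 0.0413), Eno1 (-0.826 to 0.333), Eno3 (-0.336 to 0.821), Pygb (-0.0305 to 0.00401), Slc2a3 (-0.0155 to 0.167) and Slc16a3 (-0.264 to 0.429).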

Other observations

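Hemoglobin alpha, the oxygen carrier of red blood cells, had 607 and 277 FPKM in Old 1 and Old 2 and 39.5 and 88.6 FPKM in Young 1 and Young 2, summed over the loci of Hba-a1 and Hba-a2. Aldoa, the muscle aldolase, had a value only in Old 2 (1214 FPKM) and Young 1 (listed at 0), and was not compared.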
